A study of Mus musculus with 2 samples.

Results

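The 10 clock genes described here were taken by symbol: the activators Arntl and Clock, the repressors Per1, Per2, Per3, Cry1 and Ciart, the REV-ERB genes Nr1d1 and Nr1d2, and the output factor Dbp. All 10 were found among the 16174 genes listed in the libraries, and all 10 passed the minimum of 1 FPKM (fragments per kilobase of transcript, scaled to library size) in either library, as did 11746 genes in all. RNA sequencing was done on brown adipose tissue of female C57BL/6 mice fed chow to 45 weeks of age, with 1 library per genotype. The control library carried floxed D3B alleles (D3Bfl/fl). The knockout library carried the same floxed alleles and a heterozygous Cre recombinase driven by the Ucp1 promoter (D3Bfl/fl-UCP1-Cre+/-), which is active in brown adipocytes. D3B is read here as Dnmt3b, a DNA methyltransferase gene. No Cre is given for the control, so effects of Cre and of the cut allele cannot be told apart. The labels do not say how many mice a library holds.

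The mammalian circadian clock is a feedback loop of transcription factors that runs in nearly every cell. A pair of activators, BMAL1 (encoded by Arntl) and CLOCK, binds E-box elements and turns on the Per, Cry, Nr1d, Dbp and Ciart genes, whose products then repress the activators or pass the rhythm on. REV-ERB proteins, encoded by Nr1d1 and Nr1d2, repress Arntl through REV-ERB/ROR response elements (ROREs), so that Arntl peaks in the opposite phase to its targets. In brown fat, which burns fuel to make heat, this loop is known to give daily rhythm to heat production and lipid use.

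The libraries held 9666528 expected counts in the control and 10068359 in the knockout, and each was run on its own lane, which cannot be told apart from genotype. With no replicates there is no spread between mice, no p-value, and no replicate check of any difference. The 95% intervals below reflect the number of reads and nothing else, and may be too narrow, since PCR copies are not independent molecules. Dnmt3b itself rested on 15 control and 7 knockout counts, and its ratio of 0.462 (0.155 to 1.17) had an interval that included 1. The labelled tissue was set beside 8 adipocyte markers, all of them at 1 FPKM or more in either library. Of these Pparg, Adipoq and Plin1 are shared with white adipocytes and do not mark brown fat. Ucp1 was at 4987 (control) and 4271 FPKM (knockout). Marker lists of several cell types differed between the libraries and are given beside the related genes below. The labels give no time of day of collection, on which clock transcripts depend. A difference in that time and the genotype cannot be told apart here.

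Promoter stretches of members are shown because the members fall into 2 arms by the elements that drive them, and these arms are compared below. The Per arm (Per1, Per2, Per3, Ciart, Nr1d1, Nr1d2 and Dbp) is known to be driven through E-boxes and D-boxes. The Arntl arm (Arntl, Clock and Cry1) is repressed by REV-ERB, although Cry1 also has E-boxes. The windows run from 250 bases before to 50 bases after a gene's start in RefSeq (GRCm38.p6), and 9 of the 10 members had an entry, with 13 windows. Per2 had no entry, so its promoter was not searched. Both strands were searched for the E-box CACGTG, the E′-box CACGTT, the D-boxes TTATGTAA and TTACGTAA, the RORE letters TAGGTCA and the cyclic AMP response element TGACGTCA, none of which contains another. Each stretch runs 5′ to 3′ on the gene's own strand, with the matched letters in capitals (an E′-box on the opposite strand reads AACGTG):
Ciart: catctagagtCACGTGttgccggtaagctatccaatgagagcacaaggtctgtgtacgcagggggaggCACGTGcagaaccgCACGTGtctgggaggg
Per1: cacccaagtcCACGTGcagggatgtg
Per3: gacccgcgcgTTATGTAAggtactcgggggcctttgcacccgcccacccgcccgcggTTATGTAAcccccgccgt
Nr1d1: cacagatctcAACGTGccggctgctg
Cry1: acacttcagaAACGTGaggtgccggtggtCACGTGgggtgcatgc
Arntl: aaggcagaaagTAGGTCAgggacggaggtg

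The Ciart stretch (chr3:95882257-95882354, minus strand) held 3 E-boxes, whose first bases lay at -116, -58 and -44 relative to the start, within the span of the gene C920021L13Rik but outside its exons in GENCODE M21. The Per1 stretch (chr11:69098773-69098798, plus strand) held 1 E-box, within the annotated Per1 gene but outside its exons. The Cry1 stretch (chr10:85185099-85185143, minus strand) held 1 E-box and 1 E′-box and overlaps no annotated gene. An E′-box was found just before the Nr1d1 start (chr11:98775390-98775415, minus strand), also between genes. Per3 (chr4:151044806-151044880, minus strand) held the TTATGTAA D-box 2 times, in a stretch that overlaps the annotated span of Camta1 outside its exons. The RORE letters of Arntl lay at base 31 after a start, in its 5′ untranslated region (chr7:113207530-113207559, plus strand). Of all 32851 RefSeq windows, 7.15% held the E-box, 4.68% the E′-box, 0.938% the TTATGTAA D-box, 0.119% the TTACGTAA D-box, 2.61% the RORE letters and 1.79% the cyclic AMP response element. Of the 13 member windows, 3 held the E-box (Ciart, Per1 and Cry1, the last of the Arntl arm), 2 the E′-box, 1 the TTATGTAA D-box and 1 the RORE letters, and 0 held the TTACGTAA D-box or the cyclic AMP response element. Dbp and Nr1d2 of the Per arm and Clock of the Arntl arm had no match to any of these motifs in their windows. A match is a description of the letters and not a measured site of binding.

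The differences between the libraries lay in a part of the loop. Ciart and Per2 were higher in the knockout library, at 3.0 and 2.68 times their control FPKM. Dbp and Nr1d2 stood at 1.68 and 1.38 times their control level. Arntl was the member with the lowest ratio, at 0.419 of its control FPKM. Per1, Per3, Nr1d1, Clock and Cry1 were within 20% of their control level, with Per3 at 0.831. In bulk tissue, fewer cells of a type and less RNA per cell cannot be told apart.

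**Figure D1:**
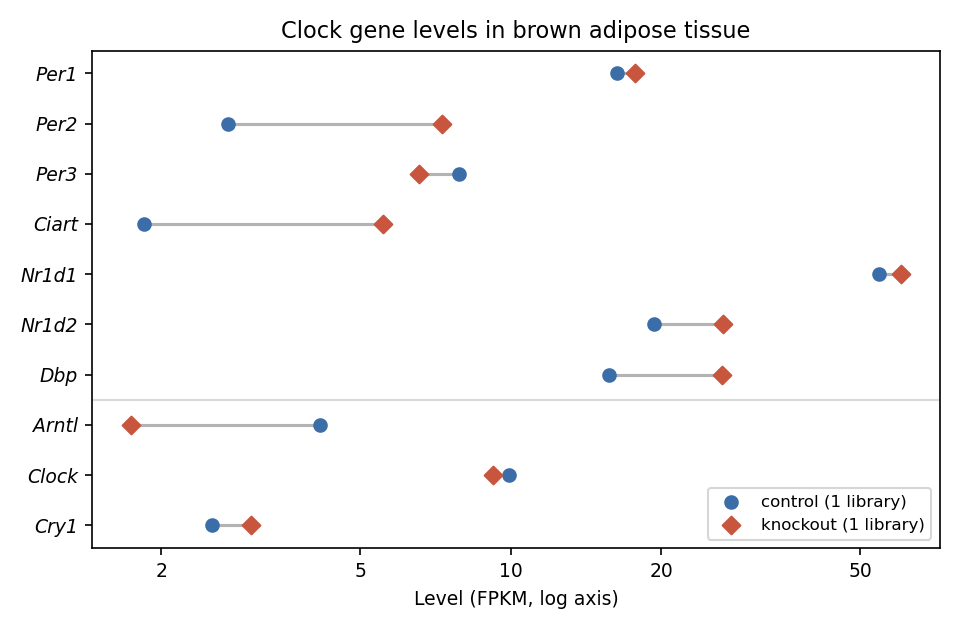
FPKM of the 10 clock genes (log axis), with a circle for the control library and a diamond for the knockout library, 1 library each, and a grey line joining them. The Per arm is above the horizontal line and the Arntl arm below it; the longest lines belong to Ciart (1.85 and 5.55 FPKM), Per2 (2.72 and 7.28 FPKM) and Arntl (4.15 and 1.74 FPKM).

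The call rule asked for a log2 ratio of FPKM + 1, knockout over control, of 1 or more in size in either direction, with 1 outside the counting interval of the ratio. By this rule 2 of the 10 clock genes, Per2 and Ciart, were called higher, where 0.902% of all tested genes were, and 0 were called lower, where 0.673% of all tested genes were. The rule gives a size and not a test, and the pseudocount of 1 FPKM understates the ratio of genes with low levels, Arntl among them. With a fold of 1.5 in place of 2, Per2, Ciart and Dbp were called higher, 3 of 10 against 4.35% of tested genes, and Arntl was called lower, 1 of 10 against 3.41% of tested genes. An interval that leaves out 1 is common at this depth: 40.6% of tested genes had one, as did 7 of the 10 clock genes. The median log2 ratio was 0.17 over the 10 and -0.03 over all tested genes.

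Among the Per genes, whose proteins join the CRY proteins to shut off BMAL1 and CLOCK, only Per2 met the 2-fold rule. Per2 (Entrez gene 18627) stood at 2.72 (control) and 7.28 FPKM (knockout), from 153 and 426 expected counts. The ratio of 2.68 had a counting interval of 2.22 to 3.24, and its log2 ratio of 1.15 was place 59 from the top among the 11746 tested genes. Per1 (18626), the most abundant Per gene in both libraries and the one best known for rapid induction by hormones and cyclic AMP, was at 16.3 (control) and 17.7 FPKM (knockout), from 727 and 823 counts. Its ratio of 1.09 (0.981 to 1.20) had an interval that included 1. Per3 (18628), which is least needed for the rhythm itself, was on the other side of 1, at 7.88 (control) and 6.55 FPKM (knockout), from 451 and 390 counts. Its ratio was 0.831 (0.723 to 0.953). Of the Per genes, Per2 was thus well above its control level, Per1 close to it and Per3 below it.

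Ciart (229599), also known as Chrono, encodes a repressor that binds BMAL1. It was the least abundant of the 10 in the control library, at 1.85 FPKM against 5.55 FPKM in the knockout, and its values rest on 24 and 75 expected counts. The ratio of 3.0 was the highest of the 10, with a wide interval of 1.87 to 4.97, and its log2 ratio of 1.20 was place 50 from the top. Cry1 (12952), the repressor that peaks late in the cycle, was at 2.53 (control) and 3.02 FPKM (knockout), from 73 and 91 counts. Its ratio of 1.19 (0.870 to 1.65) had an interval that included 1, so a difference was not detectable at this depth.

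The REV-ERB genes close the stabilizing loop by repressing Arntl. Nr1d1 (217166) was the most abundant member in both libraries, at 54.5 (control) and 60.4 FPKM (knockout), from 1360 and 1567 counts. Its ratio of 1.11 (1.03 to 1.19) was near 1 although its counts were the highest of the 10. Nr1d2 (353187) was at 19.3 (control) and 26.6 FPKM (knockout), from 859 and 1231 counts, a ratio of 1.38 (1.26 to 1.5). Both lay above their control level, Nr1d2 by more, and neither met the 1.5-fold rule. In GENCODE M21 the exons of Nr1d1 share 263 of 2721 bases with Thra on the opposite strand, and strand is not mentioned in the protocol. Reads from these bases cannot be told apart. Thra was at 42.6 (control) and 32.1 FPKM (knockout).

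Dbp (13170), a PAR bZIP factor that carries the rhythm to D-box genes, was at 15.7 (control) and 26.4 FPKM (knockout), from 247 and 433 counts. The ratio of 1.68 had an interval of 1.44 to 1.98, and its log2 ratio was 0.72, place 337 from the top. Dbp met the 1.5-fold rule and not the 2-fold rule. Its exons share 539 of 1837 bases with Sphk2 on the opposite strand, a gene at 11.3 (control) and 9.97 FPKM (knockout), the opposite order to Dbp.

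Of the activators, Arntl (11865) was at 4.15 (control) and 1.74 FPKM (knockout), from 115 and 49 counts. The ratio of 0.419 (0.293 to 0.588) corresponds to a control level 2.39 times that of the knockout. On the log2 scale with the pseudocount it was -0.91, just short of the 2-fold rule, and place 112 from the bottom of the tested genes. Clock (12753), its partner, whose transcript is known to vary little over the day in many tissues, was at 9.90 (control) and 9.20 FPKM (knockout), from 713 and 690 counts. Its ratio of 0.929 (0.836 to 1.03) had an interval that included 1.

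**Figure D2:**
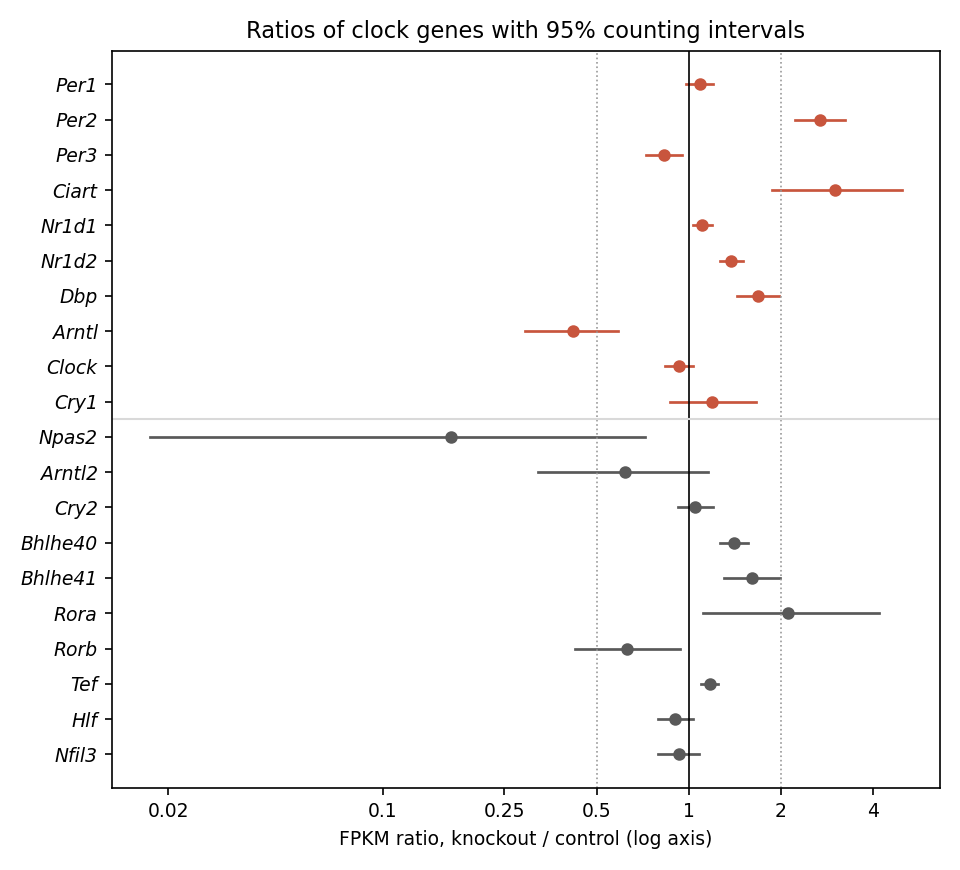
FPKM ratio of knockout to control (log axis) with 95% counting intervals as bars, for the 10 clock genes (red, above the grey line) and 10 further clock genes (grey); dotted lines mark ratios of 0.5 and 2. The intervals of Per2 (2.22 to 3.24) and Arntl (0.293 to 0.588) lie on opposite sides of 1, and that of Npas2, at 12 and 2 counts, is the widest.

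The order of the levels per transcript length also differed between the libraries. In the control it ran Nr1d1, Nr1d2, Per1, Dbp, Clock, Per3, Arntl, Per2, Cry1 and Ciart, and in the knockout Nr1d1, Nr1d2, Dbp, Per1, Clock, Per2, Per3, Ciart, Cry1 and Arntl. Arntl was thus in place 7 in the control and place 10 in the knockout, and Per2 in places 8 and 6. Neighbours whose levels differed by less than counting error in the control were Per1 and Dbp (a ratio of 1.04, interval 0.897 to 1.20), Per2 and Cry1 (1.08, 0.808 to 1.44) and Cry1 and Ciart (1.37, 0.852 to 2.27). In the knockout these were Nr1d2 and Dbp (1.01, 0.90 to 1.12), Per2 and Per3 (1.11, 0.967 to 1.28) and Per3 and Ciart (1.18, 0.920 to 1.53). Every other pair of neighbours in each library had an interval above 1.

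The Per arm and the Arntl arm were then set against each other, first as a gap between mean log2 ratios of FPKM + 1. FPKM ratios within each library follow, in which a scaling shared by all genes cancels. Of the Arntl arm, Clock varies little over the day in many tissues and Cry1 peaks late in the cycle. The arms are thus not a contrast of opposite phases alone. The mean log2 ratio was 0.50 over the 7 genes of the Per arm and -0.27 over the 3 genes of the Arntl arm, a gap of 0.78 (counting interval 0.59 to 0.96). The gap rests on few genes. Without Arntl, Per2 and Ciart, a choice made after seeing the data, it was 0.19, and with the median of each arm in place of the mean it was 0.54.

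Against Arntl, all 7 genes of the Per arm had a larger FPKM ratio in the knockout library, by 1.98 to 7.16 times, and all 7 counting intervals lay above 1. Ciart was at 0.446 of the Arntl level in the control and at 3.19 times it in the knockout, a change of 7.16 (4.05 to 12.6). Per2 went from below Arntl to above it in the same way, at 0.655 and 4.18 times its FPKM, a change of 6.38 (4.36 to 9.35). The Dbp to Arntl ratio was 3.78 in the control and 15.2 in the knockout, a change of 4.02 (2.78 to 5.81), and that of Nr1d2 was 4.65 and 15.3. Per3, itself at 0.831 of its control level, stood at 1.90 and 3.76 times Arntl. These 7 ratios share the Arntl values, so they are not independent of each other. Arntl was also place 112 from the bottom of the 11746 tested genes. Most tested genes would therefore have a larger ratio to it in the knockout, and the shared direction is not particular to the Per arm.

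The other genes of the Arntl arm gave a less uniform picture. Against Clock, 6 of 7 ratios were larger in the knockout with an interval above 1, and Per3 was at 0.796 in the control and 0.712 in the knockout, a change of 0.894 (0.754 to 1.06). Against Cry1, only Per2 and Ciart had an interval above 1, with changes of 2.24 (1.57 to 3.21) and 2.51 (1.45 to 4.37), and Per3 had one below 1, a change of 0.696 (0.497 to 0.975). By log2 ratio, Clock was place 7156 and Cry1 place 2566 from the top of the 11746 tested genes. Most tested genes would thus also have a larger ratio to Clock in the knockout, and fewer to Cry1. Over all 21 pairs, 17 had a larger ratio in the knockout, 15 with an interval above 1. The share of such intervals over all tested genes was not computed. The pairs reuse the same 10 genes and are not independent, and 7 of those 15 are pairs with Arntl. Expected counts gave close to the same changes as FPKM, 7.33 for Ciart over Arntl and 6.53 for Per2 over Arntl.

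**Figure D3:**
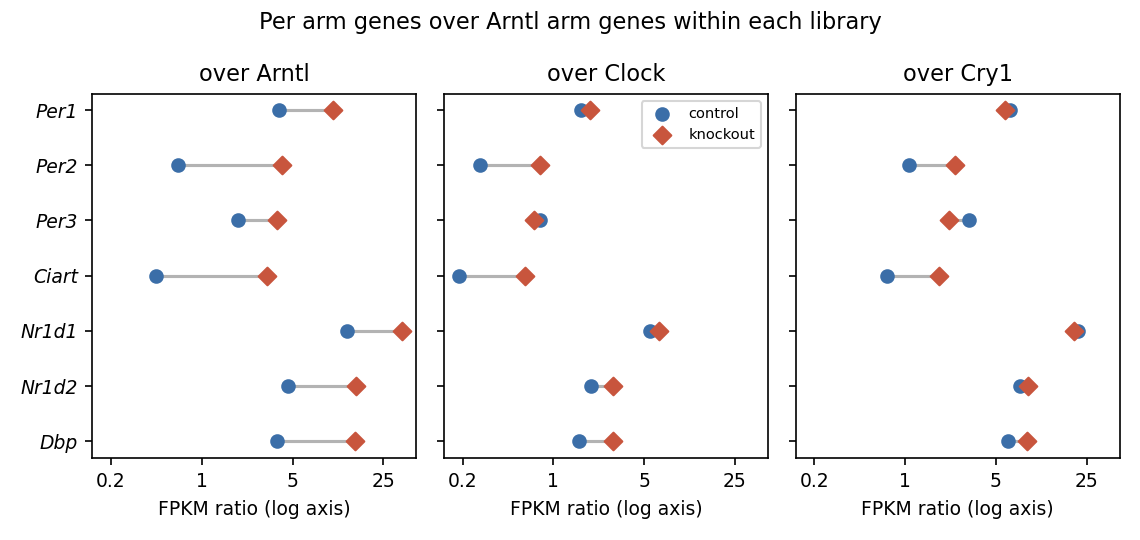
FPKM of each Per arm gene divided by that of Arntl, Clock or Cry1 in the same library (log axis), with circles for control and diamonds for knockout. Over Arntl all 7 diamonds lie to the right of their circles, by 1.98 to 7.16 times; over Cry1 the diamonds of Per2 and Ciart lie farthest to the right of their circles.

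Members were also set beside genes of like abundance, as a description of these libraries. Ciart, Per2, Arntl and Cry1 had a mean of both libraries between 2 and 6 FPKM. The central 95% of the 3090 tested genes in that range ran from -0.72 to 0.79 in log2 ratio; Ciart and Per2 lay above it, Arntl below it and Cry1 inside it. From 6 to 30 FPKM the range of 4552 genes was -0.60 to 0.65, with Dbp just above it and Nr1d2, Per1, Clock and Per3 inside. Nr1d1 was inside the range of the 1570 genes from 30 to 100 FPKM, -0.57 to 0.58.

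**Figure D4:**
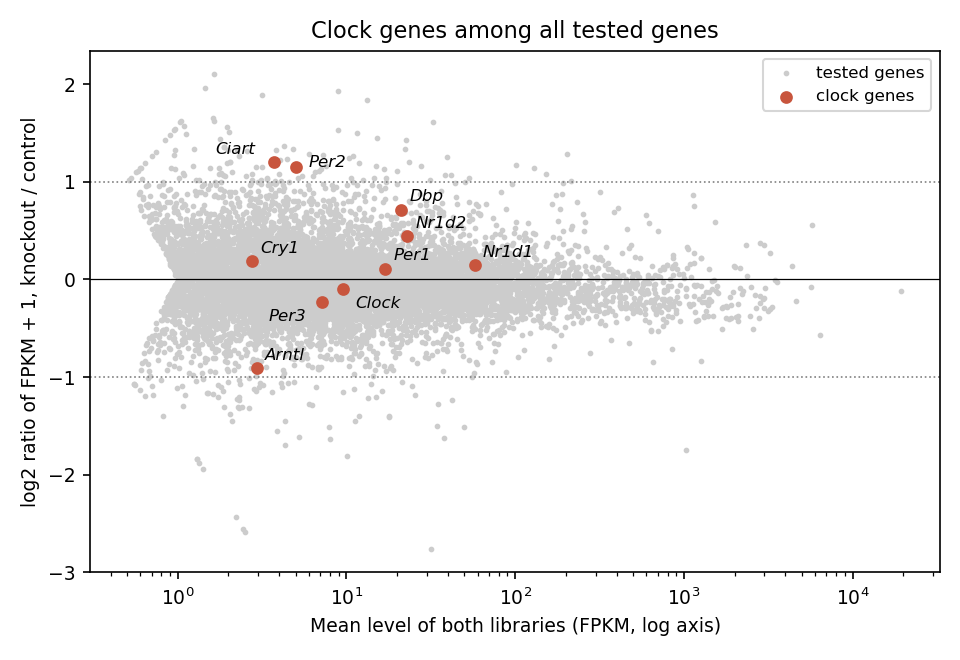
The log2 ratio of FPKM + 1, knockout over control, against the mean FPKM of both libraries (log axis), for 11746 tested genes (grey) and the 10 clock genes (red); dotted lines mark -1 and 1. Per2 (1.15) and Ciart (1.20) lie above the upper line, and Arntl (-0.91) lies just above the lower one.

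None of the other clock factors that were tested met the 2-fold rule, by which 0.902% of all tested genes were called higher and 0.673% lower. Npas2, which can stand in for CLOCK and is likewise a REV-ERB target, had 12 counts in the control and 2 in the knockout, at 0.30 (control) and 0.05 FPKM (knockout), and so was too low to be tested; the ratio of 0.167 had an interval of 0.0174 to 0.719. Arntl2, the BMAL1 paralogue, had 1.71 FPKM (control) and 1.06 FPKM (knockout), a ratio of 0.620 (0.322 to 1.16). The other repressors did not meet the 1.5-fold rule. Bhlhe41 (DEC2), with a ratio of 1.6 (1.3 to 1.99), and Bhlhe40 (DEC1), with 1.41 (1.27 to 1.56), were above their control level. Cry2 was at 1.05 (0.919 to 1.20), with an interval that included 1. Of the RORs, which activate Arntl through the elements that REV-ERB occupies, Rora was at 0.97 (control) and 2.04 FPKM (knockout), a ratio of 2.10 (1.12 to 4.19) from 15 and 33 counts, which met the 1.5-fold rule. Rorb was below the 1 FPKM minimum in both libraries.

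The PAR bZIP factors related to Dbp had ratios closer to 1. Tef had a ratio of 1.17 (1.10 to 1.25) and Hlf 0.903 (0.792 to 1.03). Nfil3, which opposes them at D-boxes and is a REV-ERB target in the phase of Arntl, had 0.927 (0.793 to 1.08). Of 14 kinases, ubiquitin ligases and other modifiers that tune the loop, 13 were tested, with a median log2 ratio of 0.01. By the 2-fold or the 1.5-fold rule 0 were called in either direction. Of all tested genes, 0.902% were called higher and 0.673% lower by the 2-fold rule, and 4.35% and 3.41% by the 1.5-fold rule. With so few genes, a count of 0 does not set this list apart. Casein kinases that mark PER proteins for decay were near 1, Csnk1d at 1.01 (0.923 to 1.10) and Csnk1e at 0.925 (0.769 to 1.11). The extremes of this list were Timeless, at 0.594 (0.427 to 0.821), and Fbxw11, a ligase subunit that acts on PER proteins, at 1.36 (1.22 to 1.52).

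Of 20 genes known to cycle in many tissues, 19 were tested, and the median log2 ratio was 0.08. By the 2-fold rule 1 was called higher and 1 lower, where 0.902% and 0.673% of all tested genes were. The higher gene was Tsc22d3, which is also induced by glucocorticoids, at 33.1 (control) and 67.2 FPKM (knockout), a ratio of 2.03 (1.85 to 2.24). The lower gene was Sik1, a kinase induced by cyclic AMP, at 21.3 (control) and 8.69 FPKM (knockout), a ratio of 0.409 (0.362 to 0.460). Wee1, a cell cycle kinase driven by E-boxes, had 1.41 (control) and 2.59 FPKM (knockout), a ratio of 1.84 (1.27 to 2.68), and Noct, the nocturnin gene, had 42.2 (control) and 26.7 FPKM (knockout), a ratio of 0.633 (0.578 to 0.692). Usp2, Tspan4 and Nampt, whose transcripts follow BMAL1 and CLOCK or cycle in many organs, had ratios of 1.07, 1.12 and 1.01. The rhythmic outputs as a list thus had a median close to that of all tested genes.

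Per1 and Per2 also answer to cyclic AMP signalling and to glucocorticoids, and genes of both responses differed between these libraries. Of 10 immediate early and CREB-responsive genes 9 had a log2 ratio below 0, as did 53.8% of all tested genes, and 4 were called lower by the 2-fold rule, as were 0.673% of all tested genes. Their summed level was 229.9 (control) and 97.2 FPKM (knockout). Nr4a1 had a ratio of 0.133, Egr1 0.240, Sik1 0.409 and Ier2 0.428. Of 5 glucocorticoid-induced genes 3 were called higher, against 0.902% of all tested genes: Fkbp5 with a ratio of 4.73, Zbtb16 with 3.15 and Tsc22d3 with 2.03, while Sgk1 had 0.840 and Klf9 1.29. The part of these differences in the values of the clock genes was not tested. Both lists were chosen with earlier results of these data known, so their counts are a description and not a test.

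Markers of the cell types that the tissue can hold also differed. The 8 markers listed for brown adipocytes summed to 17510 (control) and 13772 FPKM (knockout). The sum leans on Cox8b, the most abundant of them, at 7608 (control) and 5132 FPKM (knockout). Of the 8, 6 had a log2 ratio below 0, as did 53.8% of all tested genes. Pparg, Adipoq and Plin1, which are shared with white adipocytes, were near 1, with ratios of 0.938, 1.02 and 0.972. Dio2, the deiodinase that activates thyroid hormone, had the lowest ratio, 0.620 (0.570 to 0.673). The 3 white adipocyte markers summed to 380.9 (control) and 670.7 FPKM (knockout). All 3 had a log2 ratio above 0, as did 45.9% of all tested genes. Nnat, with a ratio of 2.12 (1.97 to 2.28), was called higher by the 2-fold rule, as were 0.902% of all tested genes. Lep, the leptin gene, was just short of this rule, with 2.0 (1.92 to 2.07). The immune markers Ptprc, Cd68, Adgre1, Cd3e and Cd79a summed to 19.7 (control) and 35.2 FPKM (knockout), with Cd3e not listed in the knockout. The fibroblast markers Pdgfra and Col1a1 summed to 24.9 (control) and 41.5 FPKM (knockout), with Col1a1, a collagen gene, at a ratio of 1.72 (1.59 to 1.87). The 5 skeletal muscle markers were low, with sums of 2.38 (control) and 2.99 FPKM (knockout). Of these Acta1, the only one tested, had a ratio of 1.96 (1.11 to 3.61), Ckm was listed in neither library, and Myh4 and Tnnt3 were not listed in the knockout. Erythroid markers summed to 6047 (control) and 5904 FPKM (knockout), and endothelial markers to 79.6 (control) and 69.6 FPKM (knockout). The part of these cell types in the values of the clock genes was not tested.

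**Figure D5:**
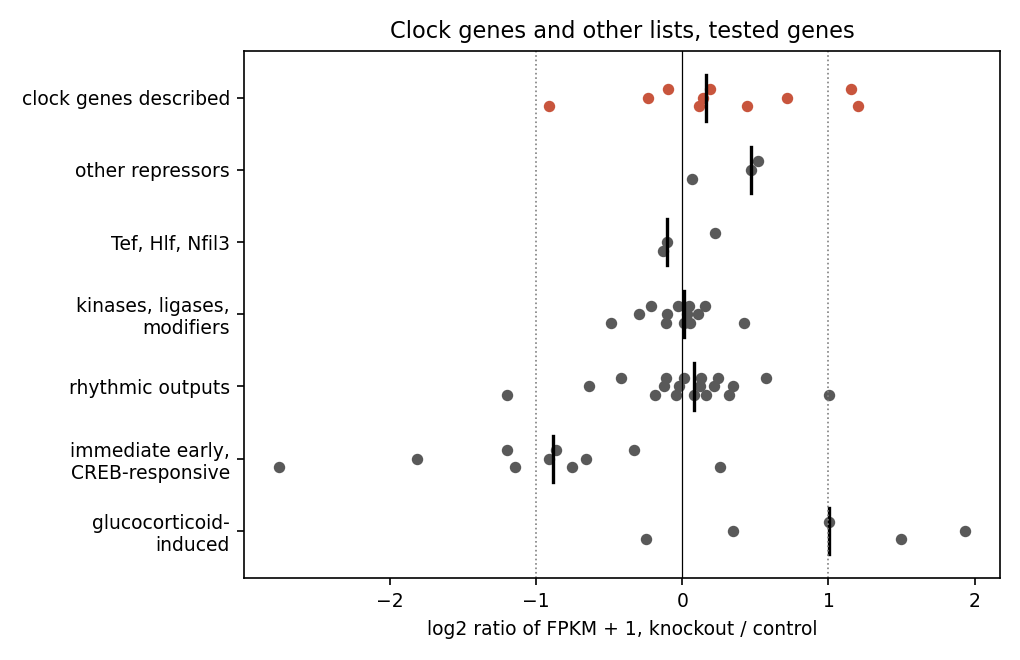
Log2 ratio of FPKM + 1, knockout over control, of each tested gene in 7 lists; each point is a gene, the black bar is the list's median and dotted lines mark -1 and 1. The 10 clock genes (red) run from -0.91 to 1.20, the kinases, ligases and modifiers from -0.49 to 0.42, and the immediate early genes from -2.76 to 0.26.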

How the data were processed

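Polyadenylated RNA was sequenced in 1 control and 1 knockout library; the protocol does not mention strand. The authors deposited per gene an expected count (estimated reads, with shared reads divided among genes) and an FPKM value to 2 decimals, per the file headers. RSEM and the mouse build mm9 are named in the submitters' processing notes, with no version; the aligner was not given in those sources. Genes not listed were set to 0. Entrez identifiers were matched to RefSeq symbols for 16134 of 16174 genes. Promoter coordinates are of GRCm38.p6, not of mm9. The ratio is of deposited FPKM; its interval is an exact conditional Clopper-Pearson interval of the rounded expected counts. The limit that a count of 0 allows, 3 counts, is 0.310 CPM (reads scaled to the library total) for the control and 0.298 CPM for the knockout. The interval of the gap between arms and those of pair changes use Poisson errors of the counts. All 10 members have whole counts, to within 0.05. The 10 members are all named, with further clock genes from fixed lists; of the immediate early and glucocorticoid lists up to 4 with the largest absolute log2 ratio are named, beside Klf9 and genes of other lists. Members, lists and motifs were chosen with earlier results of these data known. The call by size was tested on simulated data with counting error only and 4-fold changes in genes above a minimum level. It does not cover variation between mice, smaller changes or low genes. Alternatives were other pseudocounts, filters, folds and scalings. Python 3.11.15, numpy 2.4.6, pandas 2.3.3 and scipy 1.17.1 were used. 1 further clock gene of the fixed lists is not reported here.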

Additional observations from a re-analysis of the deposited data

How the results depend on the processing

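No paired analysis was possible because each genotype has 1 library. The clock genes called higher were 2, and became 0 with a pseudocount of 5 or a fold of 4, and 1 (Per2) with a mean of at least 5 FPKM. Those called lower were 0, and became 1 (Arntl) with a pseudocount of 0.1, with CPM and with a fold of 1.5. Over all tested genes, 106 higher and 79 lower became 281 and 196 with a pseudocount of 0.1, 15 and 14 with a pseudocount of 5, 42 and 27 with a mean of at least 5 FPKM, 511 and 401 with a fold of 1.5, and 1 and 3 with a fold of 4; CPM gave 179 higher. The gap between arms, 0.78, was 0.47 with a pseudocount of 5, 0.54 with the median of each arm and 1.01 without Cry1. In alternatives chosen after seeing the data it was 0.46 without Arntl, 0.51 without Per2 and Ciart, and 0.19 without all of these. The gap stayed above 0 under each alternative run. A scaling that shifts all log2 ratios equally cancels in the gap and could not have changed it. The log2 ratios of the 10 members kept their sign in all 60 values under other pseudocounts and scalings, of which 5 moved past counting error: Arntl to -0.44, Per2 to 0.67 and Ciart to 0.62 with a pseudocount of 5, and Per2 to 1.39 with a pseudocount of 0.1 and to 1.36 with CPM. A change of pseudocount cannot change the sign of a log2 ratio, so the signs of those values were fixed in advance. Fewer genes are tested under a higher minimum, and a larger pseudocount shrinks ratios of low genes by construction. The cause of the other shifts was not tested. Low counts of Ciart, Npas2 and Rora limit their precision.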

Other observations

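Genes that REV-ERB is known to repress in brown fat did not share 1 direction. Elovl3, which lengthens fatty acids, was at 23.2 (control) and 38.3 FPKM (knockout), a ratio of 1.65 (1.46 to 1.87) that met the 1.5-fold rule. Ucp1, the uncoupling protein of heat production, had a ratio of 0.857 (0.847 to 0.865), its coactivator gene Ppargc1a 0.812 (0.735 to 0.896) and the lipogenic factor Srebf1 0.916 (0.860 to 0.974). The cold-inducible RNA-binding genes Cirbp and Rbm3, whose daily rhythm follows body temperature, had ratios of 0.912 (0.733 to 1.13) and 0.968 (0.882 to 1.06), both with intervals that included 1.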
